A study of Mus musculus with 12 samples.

Results

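The core genes of synaptic vesicle release were followed across the cochlea in mice homozygous for Gjb2 35delG and in wild-type mice. The set holds 8 genes, Snap25, Vamp1, Vamp2, Stx1a, Cplx1, Cplx2, Syp and Syt2, taken by name from the 37432 genes of the deposited expression table and read in all 12 libraries. They were taken for their known roles, by a rule that uses no measured value, although earlier results of these data were known when the set was chosen. All 8 were listed once by name, and all 8 passed the filter on low values, so each member is accounted for in every test.

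A synaptic vesicle fuses when SNARE proteins on the vesicle and on the plasma membrane wind into 1 complex. VAMP1 and VAMP2 (synaptobrevins) are the vesicle SNAREs, and syntaxin 1A (Stx1a) and SNAP25 are the plasma membrane SNAREs. Complexins (Cplx1, Cplx2) bind the assembled complex and hold it ready, synaptotagmin 2 (Syt2) senses the calcium that triggers fusion, and synaptophysin (Syp) is an abundant protein of the vesicle membrane. In the cochlea, inner hair cells release glutamate at ribbon synapses, with otoferlin as their calcium sensor, onto spiral ganglion neurons, whose own axon terminals in the brainstem use the conventional machinery.

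The wild-type and homozygous mice were males at P14, around the onset of hearing. Their cochleae were cut into apical, middle and basal turns, and each of the 6 groups had 2 biological repeats. The homozygous males grew from male 35delG/35delG embryonic stem cells by tetraploid complementation, had an almost pure C57BL/6J background and were carried by ICR foster mothers, whereas age-matched wild-type males were bought in, so genotype and origin cannot be told apart. The labels name the mutant genotype KO, while the sample titles call it ho. How many mice, cochleae or stem cell lines stand behind a library is not given in the sources used here, so p-values measure the spread between these libraries. The values are FPKM, fragment numbers set against transcript length and library size, divided here by 1 scaling factor per library (0.917 to 1.06) and called scaled FPKM. The deposited FPKM of a library summed to between 316425 and 408162. No read counts were used, so the depth is unknown. The targeted gene Gjb2 lay between 58.6 and 451 scaled FPKM over the 12 libraries, and since FPKM do not tell the 35delG allele from the wild-type one, its level checks no label.

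All 8 genes are protein coding and were placed on GRCm38. Snap25 lies at chr2:136713453-136782428 and Vamp2 at chr11:69088490-69092384, both on the plus strand. Vamp1 lies at chr6:125215551-125241249, Syp at chrX:7638471-7653256, Syt2 at chr1:134646681-134753149, Stx1a at chr5:135023482-135051100 and Cplx2 at chr13:54371349-54383917, all on the plus strand. Cplx1 lies at chr5:108518554-108550024 on the minus strand.

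The promoter windows of 5 members are shown because the 8 genes fell into a class with graded levels (Snap25, Cplx1, Vamp1, Syp and Syt2) and a class with nearly level values (Vamp2, Stx1a and Cplx2), which the next paragraphs describe. Cplx1, Vamp1 and Syp stand for the first class and Cplx2 and Stx1a for the second. Each window runs from 250 bases before to 50 bases after a RefSeq transcript start on GRCm38.p6 and is written 5′ to 3′ on the strand of the gene. Capitals mark the GC box GGGCGG, or CCGCCC where it lies on the opposite strand.
Cplx1 (chr5:108549978-108550277, minus strand): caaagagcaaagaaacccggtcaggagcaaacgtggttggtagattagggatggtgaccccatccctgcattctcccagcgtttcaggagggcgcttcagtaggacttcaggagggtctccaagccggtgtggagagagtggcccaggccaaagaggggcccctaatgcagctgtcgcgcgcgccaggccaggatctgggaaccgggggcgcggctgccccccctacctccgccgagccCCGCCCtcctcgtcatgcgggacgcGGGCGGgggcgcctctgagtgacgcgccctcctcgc
Vamp1 (chr6:125215331-125215630, plus strand): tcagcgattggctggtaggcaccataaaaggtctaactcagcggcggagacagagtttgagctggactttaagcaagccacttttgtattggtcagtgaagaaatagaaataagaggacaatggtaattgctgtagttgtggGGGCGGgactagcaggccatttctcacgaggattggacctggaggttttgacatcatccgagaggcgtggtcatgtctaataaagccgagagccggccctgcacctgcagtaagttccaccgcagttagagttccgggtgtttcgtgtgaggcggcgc
Syp (chrX:7638330-7638629, plus strand): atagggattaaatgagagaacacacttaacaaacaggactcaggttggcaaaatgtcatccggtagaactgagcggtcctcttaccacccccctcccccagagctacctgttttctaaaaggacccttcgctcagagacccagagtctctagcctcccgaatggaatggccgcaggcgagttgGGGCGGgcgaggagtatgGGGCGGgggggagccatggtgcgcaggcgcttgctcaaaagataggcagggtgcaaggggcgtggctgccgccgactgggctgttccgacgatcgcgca
Cplx2 (chr13:54302306-54302605, plus strand): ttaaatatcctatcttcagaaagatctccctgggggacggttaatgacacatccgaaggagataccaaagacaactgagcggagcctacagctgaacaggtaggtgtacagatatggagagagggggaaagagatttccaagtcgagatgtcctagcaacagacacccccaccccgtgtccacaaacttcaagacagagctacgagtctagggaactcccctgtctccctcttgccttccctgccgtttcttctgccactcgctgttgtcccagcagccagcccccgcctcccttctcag
Stx1a (chr5:135023232-135023531, plus strand): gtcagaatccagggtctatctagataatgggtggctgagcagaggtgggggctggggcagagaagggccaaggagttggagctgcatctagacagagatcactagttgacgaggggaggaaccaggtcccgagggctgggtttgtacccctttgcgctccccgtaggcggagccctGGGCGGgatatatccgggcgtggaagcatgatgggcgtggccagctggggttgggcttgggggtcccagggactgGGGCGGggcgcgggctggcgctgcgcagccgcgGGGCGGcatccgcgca
The GC box occurred 2 times in the Cplx1 and Syp windows, 3 times in the Stx1a window and once in the Vamp1 window, and these letters were not in the Cplx2 window. Of the 32851 promoter windows of this length in the RefSeq table, 35.7% held it. Both classes therefore had members with a GC box. The letters CAGCACC and GGACAG, parts of the RE1 element bound by the neuronal repressor REST, the cAMP response element TGACGTCA and the TATA box TATAAA were searched on both strands as well. In all windows they were found in 7.14%, 22.2%, 1.79% and 13.6%, respectively. None of these letters was in the 5 windows shown, and among the members only the windows of Syt2, which has 2 in the table, held GGACAG. No matches overlapped each other. The windows of Cplx1 and Stx1a were rich in G and C (67.0% and 66.3%), that of Syp held 59.0%, and those of Cplx2 and Vamp1 (53.3% and 51.7%) lay near the median of all windows (52.7%). The Cplx2 window ends at base 54302605, upstream of the deposited gene start at 54371349. It therefore lies wholly outside the deposited Cplx2 gene and belongs to another transcript start. Snap25 and Vamp2 were not matched in the table.

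Snap25, the plasma membrane SNARE with the highest mean level of the 8 genes, ran over a 390-fold range. In the wild-type mice it stood at 148 and 221 scaled FPKM in the apical turn, 353 and 444 in the middle turn, and 2.17 and 158 in the basal turn. In the homozygous mice it stood at 39.6 and 88.1 in the apical turn, 93.2 and 9.98 in the middle turn, and 738 and 844 in the basal turn. The homozygous basal pair was the highest of all, the homozygous apical and middle pairs lay below their wild-type counterparts without overlap, and the wild-type basal repeats were 72.9-fold apart.

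Cplx1 moved with Snap25 almost in proportion. Its wild-type levels were 97.1 and 118 scaled FPKM in the apical turn, 224 and 226 in the middle turn, and 1.10 and 97.6 in the basal turn. Its homozygous levels were 24.5 and 53.1 in the apical turn, 56.1 and 6.19 in the middle turn, and 419 and 437 in the basal turn. The ratio of Snap25 to Cplx1 stayed between 1.52 and 1.97 in the 12 libraries, a 1.29-fold range, while Cplx1 alone spanned 396-fold.

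Vamp1, a vesicle SNARE, had the narrowest range of the graded class, 21.2-fold. The wild-type values were 99.2 and 126 scaled FPKM in the apical turn, 173 and 231 in the middle turn, and 17.6 and 65.2 in the basal turn. The homozygous values were 42.2 and 53.0 in the apical turn, 57.4 and 23.9 in the middle turn, and 373 and 297 in the basal turn. In each turn the genotypes lay apart, the homozygous pair below in the apical and middle turns and above in the basal turn.

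Syp had the same 3 groups at the top as Snap25, Cplx1 and Vamp1. It had 49.1 and 71.3 scaled FPKM in the wild-type apical turn, 120 and 113 in the middle turn, and 3.28 and 48.8 in the basal turn. The homozygous libraries had 11.9 and 25.3 in the apical turn, 24.7 and 4.66 in the middle turn, and 182 and 225 in the basal turn. Again no repeats of the genotypes overlapped within a turn.

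Syt2, the calcium sensor, had the lowest levels and the widest range of the graded class, 670-fold. Wild-type levels were 14.0 and 18.9 scaled FPKM in the apical turn, 27.4 and 34.6 in the middle turn, and 0.130 and 10.9 in the basal turn. Homozygous levels were 4.21 and 5.74 in the apical turn, 8.46 and 0.729 in the middle turn, and 87.2 and 39.1 in the basal turn. The homozygous basal repeats were further apart for Syt2 than for the other graded genes, 2.23-fold, yet stayed above every other library.

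Vamp2, the other vesicle SNARE, was nearly level. It lay at 69.9 and 79.7 scaled FPKM in the wild-type apical turn, 58.0 and 53.8 in the middle turn, and 81.3 and 62.6 in the basal turn. The homozygous libraries had 85.2 and 66.2 in the apical turn, 62.6 and 90.1 in the middle turn, and 63.4 and 83.5 in the basal turn. Its highest and lowest libraries differed 1.67-fold, and the genotypes overlapped in the apical and basal turns but not in the middle turn, where both homozygous values were higher.

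Stx1a and Cplx2 were low and nearly level as well. Stx1a, the plasma membrane syntaxin, read 2.62 and 2.86 scaled FPKM in the wild-type apical turn, 1.74 and 1.59 in the middle turn, and 2.81 and 1.62 in the basal turn. Its homozygous values were 3.79 and 2.39 in the apical turn, 2.37 and 3.61 in the middle turn, and 2.57 and 2.19 in the basal turn. Its genotypes overlapped in the apical and basal turns, and the wild-type middle pair lay below the homozygous one.

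Cplx2, the paralog of Cplx1, read 3.35 and 3.08 scaled FPKM in the wild-type apical turn, 3.71 and 2.22 in the middle turn, and 2.07 and 3.51 in the basal turn. In the homozygous turns it read 3.31 and 2.61, 5.004 and 3.22, and 3.03 and 3.52, from apex to base. The genotypes overlapped in every turn. The ranges of Stx1a and Cplx2 over the 12 libraries were 2.38-fold and 2.42-fold.

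**Figure D1:**
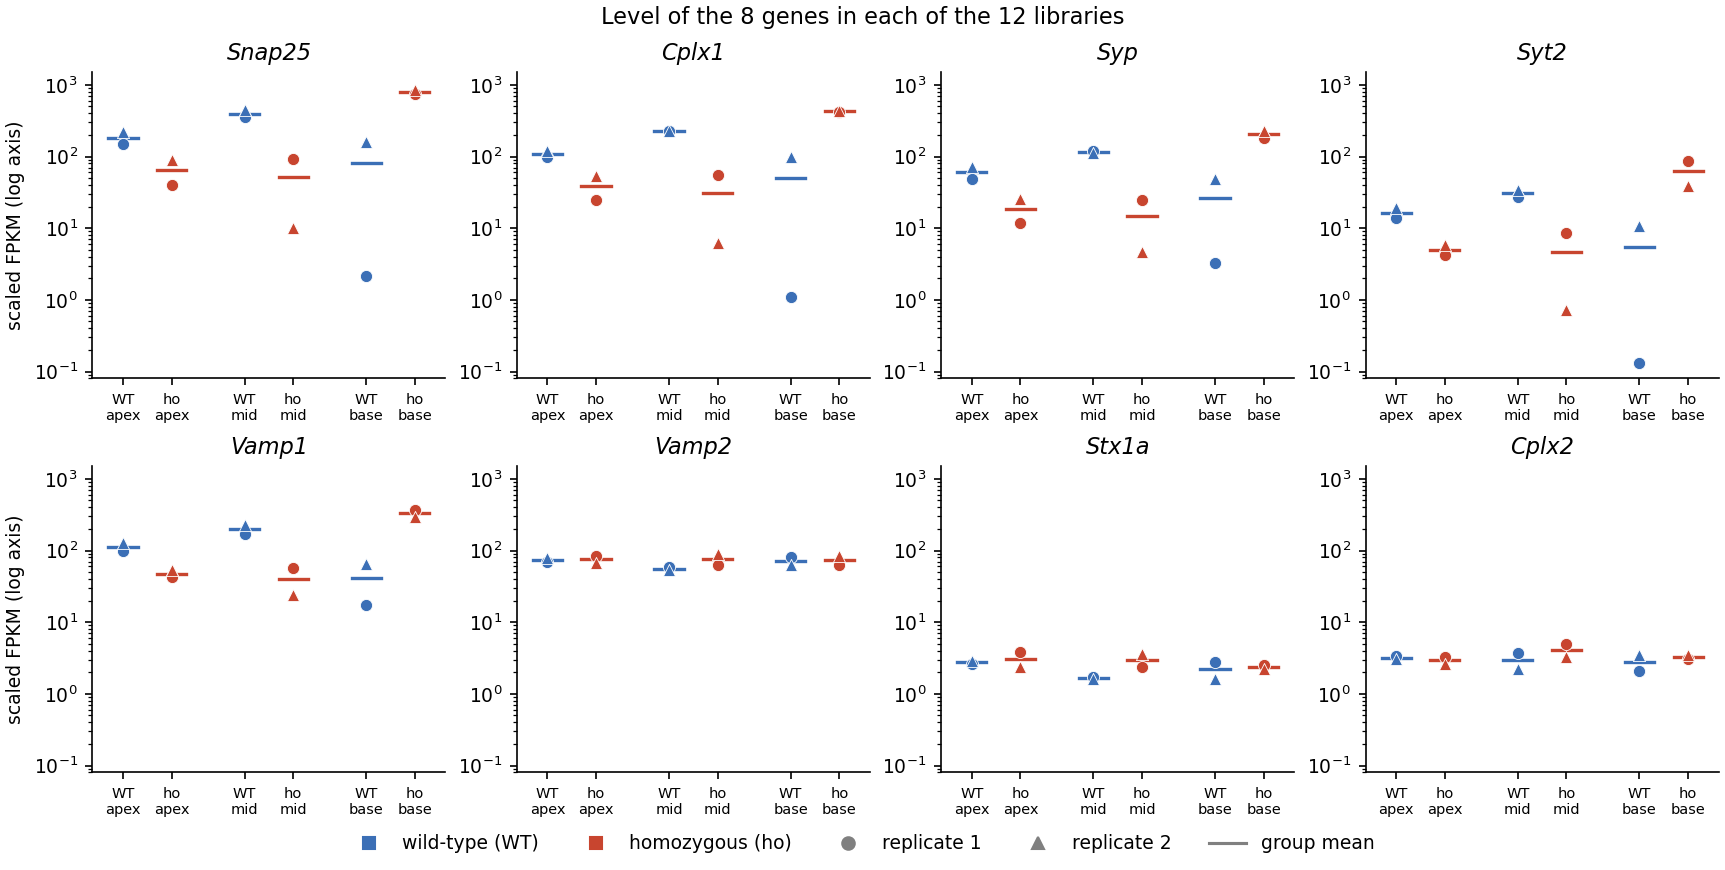
Scaled FPKM of each of the 8 genes (log axis) in the 12 libraries, with wild-type (WT) in blue, homozygous (ho) in red, circles and triangles for replicates 1 and 2, and a bar for the mean of each group. Snap25, Cplx1, Syp, Syt2 and Vamp1 are highest in the homozygous basal turn and drop in the homozygous apical and middle turns, whereas Vamp2 stays between 53.8 and 90.1.

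The order of the group means was shared within the graded class at its upper end. In all 5 genes the homozygous basal turn came first, then the wild-type middle turn and then the wild-type apical turn, and neither of the first pair overlapped its neighbour. For Snap25 the first 3 means were 791 ± 75.1, 398 ± 64.6 and 184 ± 51.9 scaled FPKM (SD, n = 2). The wild-type apical turn lay apart from the group below it for Vamp1, Syp and Syt2 but overlapped it for Snap25 and Cplx1. The lowest 3 groups, the wild-type basal and the homozygous apical and middle turns, overlapped their neighbours in each of the 5 genes. For Vamp1 these were at 47.6 ± 7.68 in the homozygous apical turn, 41.4 ± 33.6 in the wild-type basal turn and 40.6 ± 23.7 in the homozygous middle turn.

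Of the wild-type group means, that of the middle turn thus lay nearest to the homozygous basal turn. That of the basal turn lay nearest to both the homozygous middle and the homozygous apical turn. The homozygous basal mean was 1.66-fold (Vamp1) to 2.04-fold (Syt2) the wild-type middle mean in the graded class, without overlap. The homozygous middle mean was 0.564-fold (Syp) to 0.982-fold (Vamp1) the wild-type basal mean, and these groups overlapped in all 5 genes. The homozygous apical mean was 0.714-fold (Syp) to 1.15-fold (Vamp1) the wild-type basal mean, also with overlap in all 5. The graded genes thus did not single out the homozygous middle turn as the group like the wild-type basal turn. The summed hair cell markers paired the groups in the same way, at 95.6 and 219 scaled FPKM in the wild-type middle turn beside 75.5 and 140 in the homozygous basal turn, and at 272 and 261 in the wild-type basal turn beside 318 and 552 in the homozygous middle turn. These pairs were set side by side after their values were seen. The turns were taken as labelled, and whether middle and basal pieces or labels were exchanged in 1 genotype was not tested. The middle and basal genotype differences given here rest on those labels. In the nearly level class the neighbours in the order overlapped, except that Vamp2 had its lowest mean, 55.9 ± 2.97, in the wild-type middle turn, apart from the wild-type basal turn, and that Stx1a in the wild-type apical turn lay apart from the homozygous basal turn.

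Within a library, the balance of the paralogs shifted with the graded class. The ratio of Vamp1 to Vamp2 was 1.42 and 1.57 in the wild-type apical turn, 2.98 and 4.28 in the middle turn, and 0.216 and 1.04 in the basal turn. In the homozygous mice it was 0.495 and 0.801, 0.917 and 0.265, and 5.88 and 3.56 from apex to base. Vamp1 thus exceeded Vamp2 in scaled FPKM in all wild-type libraries except 1 basal library, and in the homozygous mice only in the basal turn. The ratio of Cplx1 to Cplx2 had a median of 28.4, its highest value (138) in a homozygous basal library and its lowest (0.534) in replicate 1 of the wild-type base. Cplx2 exceeded Cplx1 in that library alone. Snap25 was the highest member in 9 libraries and Vamp2 in the other 3, namely replicate 1 of the wild-type base, replicate 1 of the homozygous apex and replicate 2 of the homozygous middle. In these Vamp2 made up 73.6%, 39.7% and 63.3% of the summed level of the 8 genes, which itself ran from 110 to 1931 scaled FPKM.

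**Figure D2:**
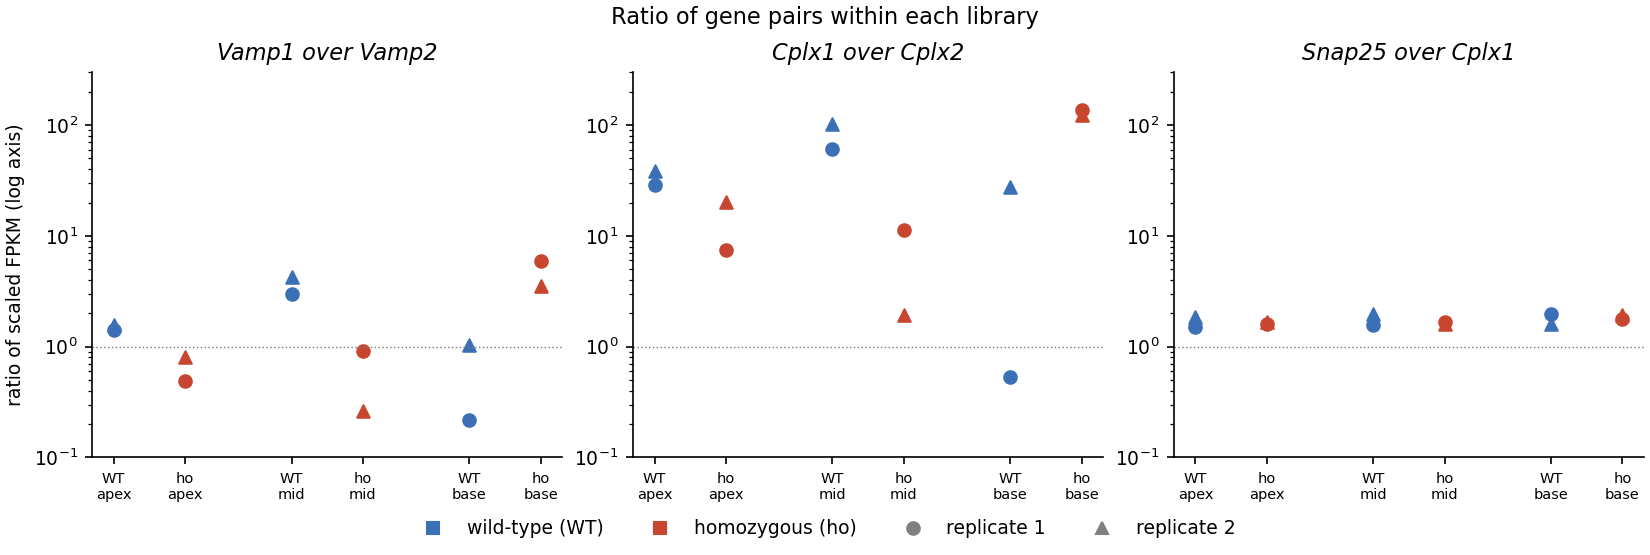
Ratio of scaled FPKM (log axis) of Vamp1 to Vamp2, Cplx1 to Cplx2 and Snap25 to Cplx1 within each library, with wild-type in blue, homozygous in red and a dotted line at equal levels. The first ratio spans 27.2-fold and the second 259-fold over the 12 libraries, whereas the third spans 1.29-fold.

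The library labelled replicate 1 of the wild-type base stood apart from its repeat for the whole graded class. Its levels were lower 72.9-fold for Snap25, 88.5-fold for Cplx1, 83.4-fold for Syt2, 14.9-fold for Syp and 3.704-fold for Vamp1. The homozygous middle repeats were also far apart, 9.33-fold for Snap25 and 9.07-fold for Cplx1. For Vamp2, by contrast, these pairs differed 1.30-fold and 1.44-fold.

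The neuron markers ordered the libraries much as the graded class did. The 20 listed neuron markers, led by Calb2, Pvalb and Nefh, summed to 1395 and 2007 scaled FPKM in the wild-type apical turn, 2942 and 3779 in the middle turn, and 110 and 1234 in the basal turn. In the homozygous mice they summed to 343 and 696, 699 and 134, and 4658 and 4805 from apex to base. All 20 markers were above 0 in every library except replicate 1 of the wild-type base, where 2 were listed at 0. Syp made up 2.98% to 4.67% of that sum, a 1.57-fold range, the narrowest of the 8 genes. The share of Vamp1 ran from 5.28% to 17.9%, and the share of Vamp2 from 1.36% to 73.8%. In bulk libraries, fewer cells of a type and less RNA per cell cannot be told apart, and the part of the neuron content in the members' differences was not tested.

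**Figure D3:**
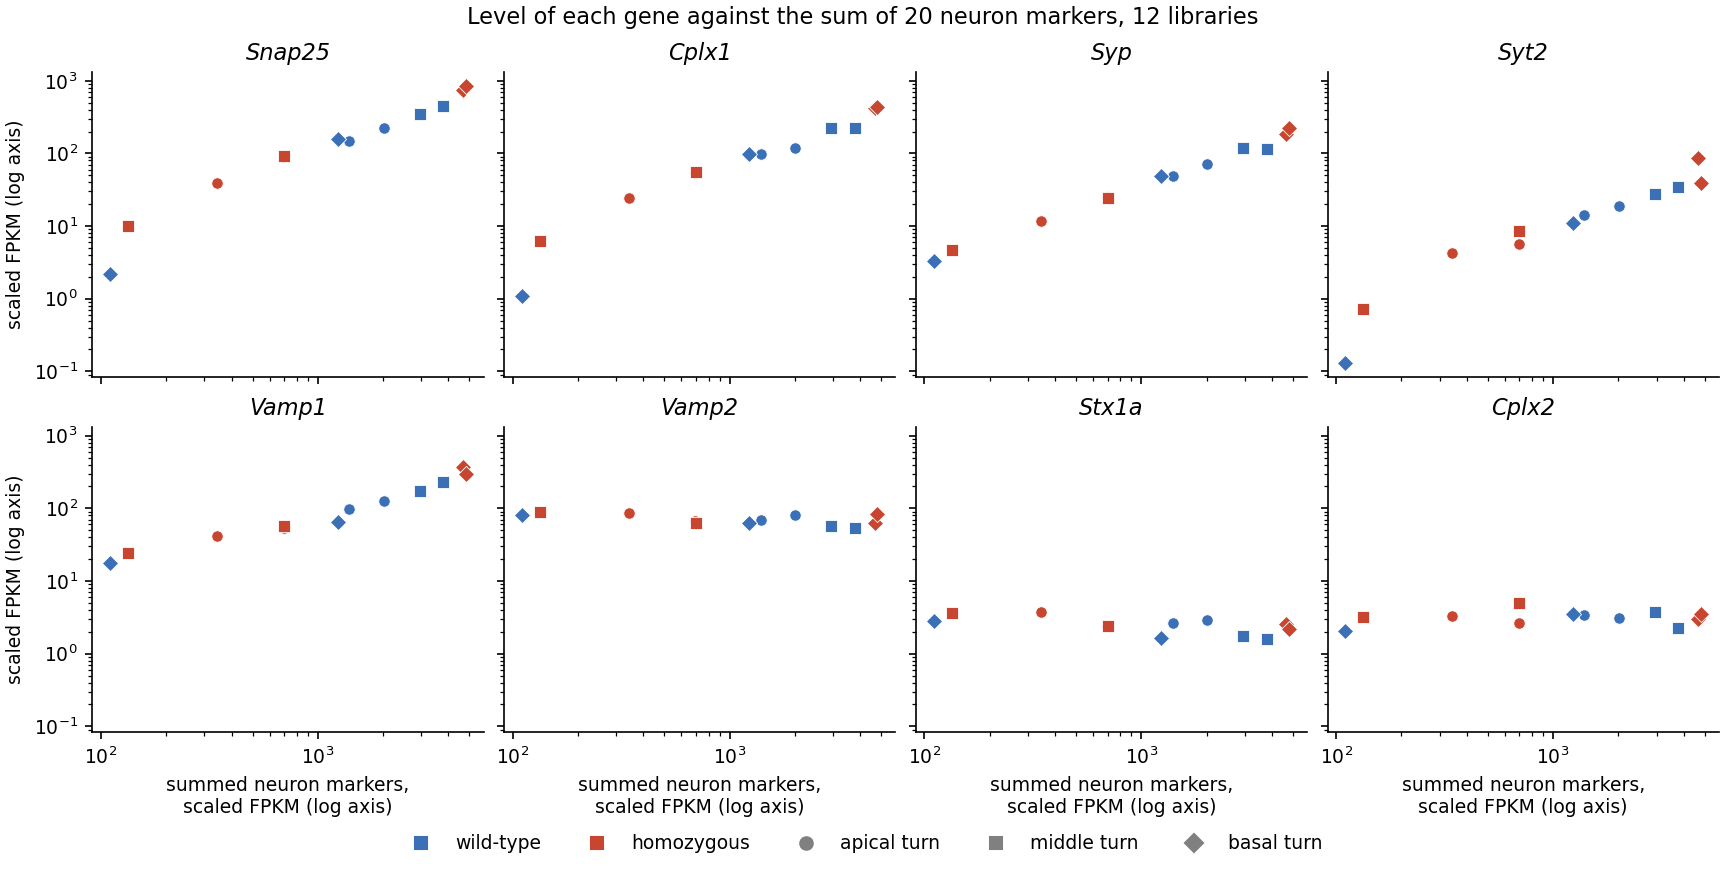
Scaled FPKM of each of the 8 genes against the summed scaled FPKM of 20 neuron markers (both log axes), with 1 point per library, wild-type in blue, homozygous in red and the turn given by the shape of the point. The graded genes rise from the library with 110 to the libraries with 4658 and 4805, and Vamp2, Stx1a and Cplx2 lie in a flat band (2 points near 696 and 699 nearly coincide).

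Markers of other tissues also differed between libraries. The 18 central nervous system markers, led by Mobp, Gfap and Mog, summed to 1523 scaled FPKM in replicate 1 of the wild-type middle turn, 498 in replicate 2 of the wild-type base, and 523 and 824 in the homozygous basal turn. In the other 8 libraries they summed to between 15.8 and 27.7, with 1 to 5 of the 18 listed at 0. Replicate 2 of the wild-type middle turn had a sum of 17.9, with Mobp at 3.65, and had the highest summed level of the 8 genes among the wild-type libraries (1106). Replicate 2 of the wild-type base exceeded its repeat both in these markers and in the graded class. The 14 Schwann cell and myelin markers, with Mbp and S100b among the most abundant, summed to 2201 to 7285 in the wild-type and 10497 to 15270 in the homozygous basal turn. The 19 hair cell markers, led by Ocm, Myo6 and Cib2, summed in the basal turn to 272 and 261 for the wild-type pair and to 75.5 and 140 for the homozygous pair, opposite to the graded class. The part of these markers in the members' differences was not tested.

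The effect of the 35delG genotype was tested in each turn as the difference, homozygous minus wild-type, on log2(scaled FPKM + 1), where differences of low genes are understated. Genes counted as called where limma gave an adjusted p below 0.01 and the fold change exceeded 2. In the apical turn, 0 of the 8 genes were called, where 0.179% of all 16215 genes tested were, and 0 had an unadjusted p under 0.05, against 16.4% of all genes. The repeats of the genotypes did not overlap in 5 of the 8 genes, all lower in the homozygous mice, which was the case in either direction for 59.0% of all genes. The log2 differences of these 5 genes lay between −1.71 for Syp (SE 1.04, adjusted p = 0.459) and −1.22 for Vamp1 (SE 0.57, adjusted p = 0.332). The 3 nearly level genes had log2 differences of 0.01 (Vamp2), 0.11 (Stx1a) and −0.09 (Cplx2). The median of the 8 was −1.38, beside −0.03 over all genes.

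In the middle turn, 0 of the 8 genes were called, again beside 0.179% of all genes, and 4 of them (Snap25, Vamp1, Syp and Syt2, all lower) had an unadjusted p under 0.05, as had 25.4% of all genes. Vamp1 had the smallest adjusted p, 0.0530, with a log2 difference of −2.39 (SE 0.57). The other graded genes had larger differences and larger errors, from −3.62 for Snap25 (SE 1.58, adjusted p = 0.192) to −2.98 for Syt2 (SE 1.05, adjusted p = 0.125). Syp lay between them at −3.29 (adjusted p = 0.0972). The 5 graded genes were lower and Vamp2 and Stx1a higher without overlap of the genotypes, as were 59.5% of all genes in either direction. Vamp2 was at 0.42, with a 95% interval from −0.12 to 0.96, and Stx1a at 0.57, from −0.02 to 1.15. The median of the 8 was −2.69, beside 0.04 over all genes.

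In the basal turn, Vamp1 rose in the homozygous mice, with a log2 difference of 3.25 (SE 0.57, adjusted p = 0.00868) and a ratio of group means of 8.09. It was the 1 of 8 genes called, beside 4.29% of all genes. The other 4 graded genes had larger estimates that did not pass. Syp was at 3.80 (SE 1.04, adjusted p = 0.0364), Syt2 at 4.02 (SE 1.05, adjusted p = 0.0313), Snap25 at 5.14 (SE 1.58, adjusted p = 0.0536) and Cplx1 at 4.90 (SE 1.53, adjusted p = 0.0576). At a looser threshold, an adjusted p below 0.05 with the fold still above 2, 3 members (Vamp1, Syp and Syt2) were higher, as were 6.78% of all genes. All 5 were higher without overlap of the genotypes, against 54.0% of all genes in either direction. The 95% intervals of the nearly level genes ran from −0.52 to 0.57 for Vamp2, from −0.49 to 0.68 for Stx1a and from −0.42 to 0.82 for Cplx2. The median of the 8 was 3.52, beside −0.02 over all genes.

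The basal estimates depended on the libraries in the fit. With 1 library left out, the log2 difference ran from 2.31 to 7.96 for Snap25, from 2.11 to 7.67 for Cplx1, from 2.02 to 5.57 for Syp and from 2.32 to 5.72 for Syt2. The low end came without replicate 1 and the high end without replicate 2 of the wild-type base. In the middle turn, where no member was called, the difference of Snap25 ran from −5.18 without replicate 1 to −2.08 without replicate 2 of the homozygous middle turn. The call of Vamp1 was lost when any of the 12 libraries other than replicate 2 of the wild-type base was left out, with adjusted p-values up to 0.0451. The largest move in the estimate came without replicate 1 of the wild-type base, where the difference was 2.33 (adjusted p = 0.0303). Without replicate 2 of the wild-type base it was 4.17 (adjusted p = 0.00124), and all 5 graded genes were called. Over all alternatives the adjusted p of Vamp1 lay between 0.00124 and 0.133, and its log2 difference between 2.33 and 4.17.

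**Figure D4:**
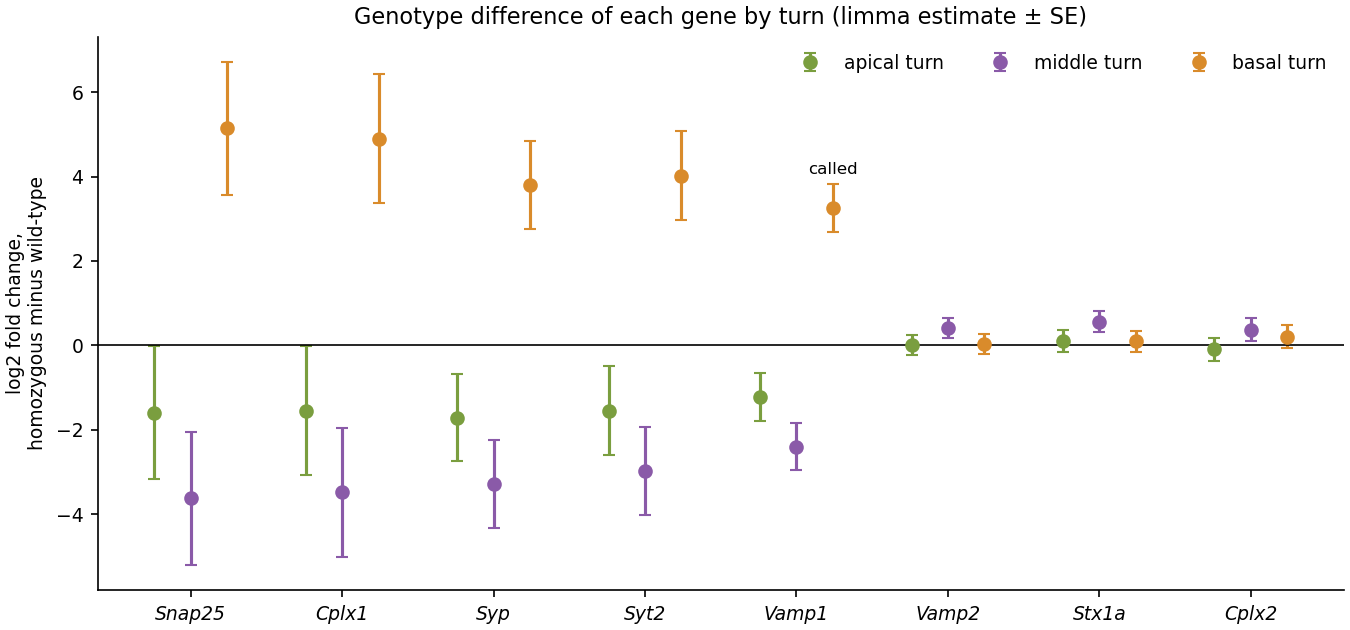
Log2 difference, homozygous minus wild-type, of each of the 8 genes in the apical (green), middle (purple) and basal (orange) turn, as the limma estimate with its standard error. The 5 graded genes lie below 0 in the apical and middle turns and above 0 in the basal turn, where Vamp1 was called at 3.25, and Vamp2, Stx1a and Cplx2 lie within 0.57 of 0.

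Averaged over the turns, the genotype differences of the 8 genes lay between −0.40 for Syp and 0.26 for Stx1a. In the graded genes this mean combined lower levels in the apical and middle turns with higher levels in the basal turn. Of the members 0 were called, beside 0.376% of all genes, and 0 had an unadjusted p under 0.05, beside 18.6%. The 95% intervals of this mean ran from −2.09 to 2.04 for Snap25 and from −2.05 to 1.97 for Cplx1. For Stx1a the interval ran from −0.08 to 0.59, and for Vamp2 from −0.16 to 0.47.

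Whether the genotype difference itself differed between turns was tested with interaction contrasts, which share their libraries with the tests within turns. Between the basal and the middle turn, the genotype difference of Vamp1 was higher by 5.65 on the log2 scale in the basal turn (SE 0.80, adjusted p = 0.00324), the 1 member called beside 8.91% of all genes. The differences were 8.76 for Snap25 (adjusted p = 0.0240), 8.37 for Cplx1 (adjusted p = 0.0256), 7.09 for Syp (adjusted p = 0.0107) and 6.997 for Syt2 (adjusted p = 0.0119). At the looser threshold of 0.05 all 5 were higher, as were 11.3% of all genes. Vamp2, Stx1a and Cplx2 were at −0.39, −0.47 and −0.17. The call of Vamp1 was lost without either wild-type middle library or without replicate 1 of the homozygous base, with adjusted p-values of 0.0119, 0.0112 and 0.0101, and without replicate 2 of the wild-type base all 5 graded genes were called. Its adjusted p lay between 0.000613 and 0.0201 over all alternatives.

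Between the basal and the apical turn, 0 of the 8 genes were called, beside 0.796% of all genes. Vamp1, with 4.47 (adjusted p = 0.0137), Syp, with 5.51 (adjusted p = 0.0427), and Syt2, with 5.57 (adjusted p = 0.0429), were higher at the threshold of 0.05, as were 7.09% of all genes. Without replicate 2 of the wild-type base, 5 members were called. The 5 graded genes had an unadjusted p under 0.05, beside 28.4% of all genes. Between the middle and the apical turn 0 were called, as 0.0% of all genes were, and 0 had an unadjusted p under 0.05, beside 8.05%.

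Along the wild-type cochlea, no member was called between turns. From the apical to the middle turn the graded genes had log2 differences from 0.83 (Vamp1) to 1.13 (Snap25). There, 0 of the 8 passed, beside 0.0863% of all genes, and 0 had an unadjusted p under 0.05, beside 19.9%. From the apical to the basal turn, again beside 0.0863% of all genes called, the graded genes had differences from −3.02 (Snap25) to −1.68 (Vamp1), and Vamp1 alone had an unadjusted p under 0.05, as had 20.3% of all genes. From the middle to the basal turn Vamp1 had a difference of −2.52 (adjusted p = 0.126) and Snap25 of −4.14 (adjusted p = 0.259). Of the 8, 0 were called, as 0.0% of all genes were, and the 5 graded genes had an unadjusted p under 0.05, beside 15.2% of all genes.

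Along the homozygous cochlea, the basal turn held the high values. From the middle to the basal turn Vamp1 rose by 3.13 on the log2 scale (SE 0.57, adjusted p = 0.00911), the 1 member called beside 4.66% of all genes. Syp at 4.08 (adjusted p = 0.0278) and Syt2 at 3.88 (adjusted p = 0.0348) joined it at the threshold of 0.05, where 7.23% of all genes were higher. The call of Vamp1 was lost without any 1 library other than the wild-type basal ones, and without either of those, which enter this contrast through the shared estimate of spread, all 5 graded genes were called. From the apical to the basal turn 0 were called, beside 4.06% of all genes, and Vamp1 (2.79, adjusted p = 0.0133) and Syp (3.47, adjusted p = 0.0495) were higher at an adjusted p under 0.05, as were 6.41% of all genes. Without either wild-type basal library, 2 members were called there. The 5 graded genes had an unadjusted p under 0.05 in that contrast, beside 32.9% of all genes. From the apical to the middle turn 0 members were called, as 0.0% of all genes were, and 0 had an unadjusted p under 0.05, beside 2.65%.

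Other genes of the release machinery were read in 3 lists. The list of 26 other SNARE proteins in the table, which act in the plasma membrane, endosomes and the Golgi of most cells, stayed near 0 in its genotype differences, with medians of 0.09, −0.06 and −0.09 from apex to base. With limma 0 were called in either of the first 2 turns, beside 0.179% of all genes in each. In these turns 4 and 9 had an unadjusted p under 0.05, beside 16.4% and 25.4% of all genes. In the basal turn 1 of the list was called higher and 1 lower, where 4.29% of all genes were called. Vamp8, a SNARE of endosomes and secretory granules of non-neuronal cells, was the gene called lower. It fell by 1.596 on the log2 scale (limma, SE 0.15, adjusted p = 0.00206). In the difference between the basal and the middle turn, 1 was called higher and 2 lower, beside 8.91% of all genes. The most abundant of the list were Vamp8, Stx7 and Vti1b, and the range of Stx7 over the 12 libraries was 1.47-fold.

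Of the 23 SNARE assembly and recycling factors, 21 passed the filter on low values. In the apical and middle turns limma called 0 of them, with 6 and 15 at an unadjusted p under 0.05, most of them lower. At that threshold were 16.4% and 25.4% of all genes. In the basal turn 6 rose and 0 fell, where 4.29% of all genes were called. These were Nsf (2.74), the ATPase that takes spent SNARE complexes apart, its adaptor Napg (1.23), the priming factor Unc13a (1.91), the active zone scaffold Rims1 (2.25), Snph (2.77) and Stxbp5l (1.38). The list's median differences were −0.43, −0.80 and 0.91 from apex to base. Nsf spanned 11.1-fold over the 12 libraries, whereas Napa, the ubiquitous adaptor of Nsf, spanned 1.503-fold. In the difference between the basal and the middle turn, 10 of the list were called higher and 0 lower, beside 8.91% of all genes.

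Of the vesicle membrane proteins and calcium sensors, 30 of 37 in the table passed the filter. In the apical and middle turns limma called 0, with 7 and 16 at an unadjusted p under 0.05, beside 16.4% and 25.4% of all genes. The share of all genes called in the basal turn was 4.29%. In the basal turn the sensor Syt3 (3.20), the vesicle phosphoprotein Syn2 (2.82) and Scamp5 (2.39) rose, and Otof, the sensor of inner hair cell release, fell by 4.60 on the log2 scale (adjusted p = 0.00162). In the basal turn Otof was at 32.2 and 20.7 scaled FPKM for the wild-type pair but at 0.0982 and 0.109 for the homozygous pair, opposite to Syt2. The medians of the list were −0.61, −0.94 and 2.24 from apex to base. Rab3a, Syt11 and Sypl had the highest means, and while Rab3a and Syt11 spanned 13.9-fold and 33.9-fold, Sypl, a relative of Syp found in many tissues, spanned 1.87-fold. Between the basal and the middle turn, 12 genes of the list were called higher and 2 lower (Otof and Syngr2), beside 8.91% of all genes.

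The neuron markers had medians of −1.56, −3.22 and 3.67 from apex to base, of the same sign as the medians of the 8 genes in each turn. Of the 20, limma called 0 in the apical and middle turns, with 2 and 14 at an unadjusted p under 0.05, and Kcna1 alone (2.92) in the basal turn. In the basal turn the estimates of all 20 were above 0, beside a median of −0.02 over all genes. Over all genes, 16.4% and 25.4% had an unadjusted p under 0.05 in the apical and middle turns. The shares of all genes called were 0.179% in each of these turns and 4.29% in the basal turn. The Schwann cell and myelin markers had medians of −0.70, −2.41 and 2.29, with 0 called in the apical turn (5 at an unadjusted p under 0.05), 2 lower in the middle turn and 5 higher in the basal turn. The hair cell markers had medians of −0.82, 0.70 and −1.87, with 0 called in the apical turn (9 at an unadjusted p under 0.05), 1 higher in the middle turn and 4 lower in the basal turn. Of the 13 central nervous system markers tested, 0 were called in any turn, with medians of 0.06, −1.91 and 1.61 and 1 at an unadjusted p under 0.05, in the basal turn. Of the 10 stria vascularis markers, led by Cldn11, Atp1b2 and Dct, limma called 0 in any turn (9, 8 and 0 at an unadjusted p under 0.05), with medians of 3.22, 2.69 and −0.38. Of the 10 bone markers, led by Spp1, Col1a2 and Ibsp, it also called 0 (2, 1 and 0), with medians of 1.88, 0.87 and −0.46. No share of all genes was taken at the unadjusted threshold for the basal turn. The basal counts of the central nervous system, stria vascularis and bone markers therefore cannot be set against all genes.

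**Figure D5:**
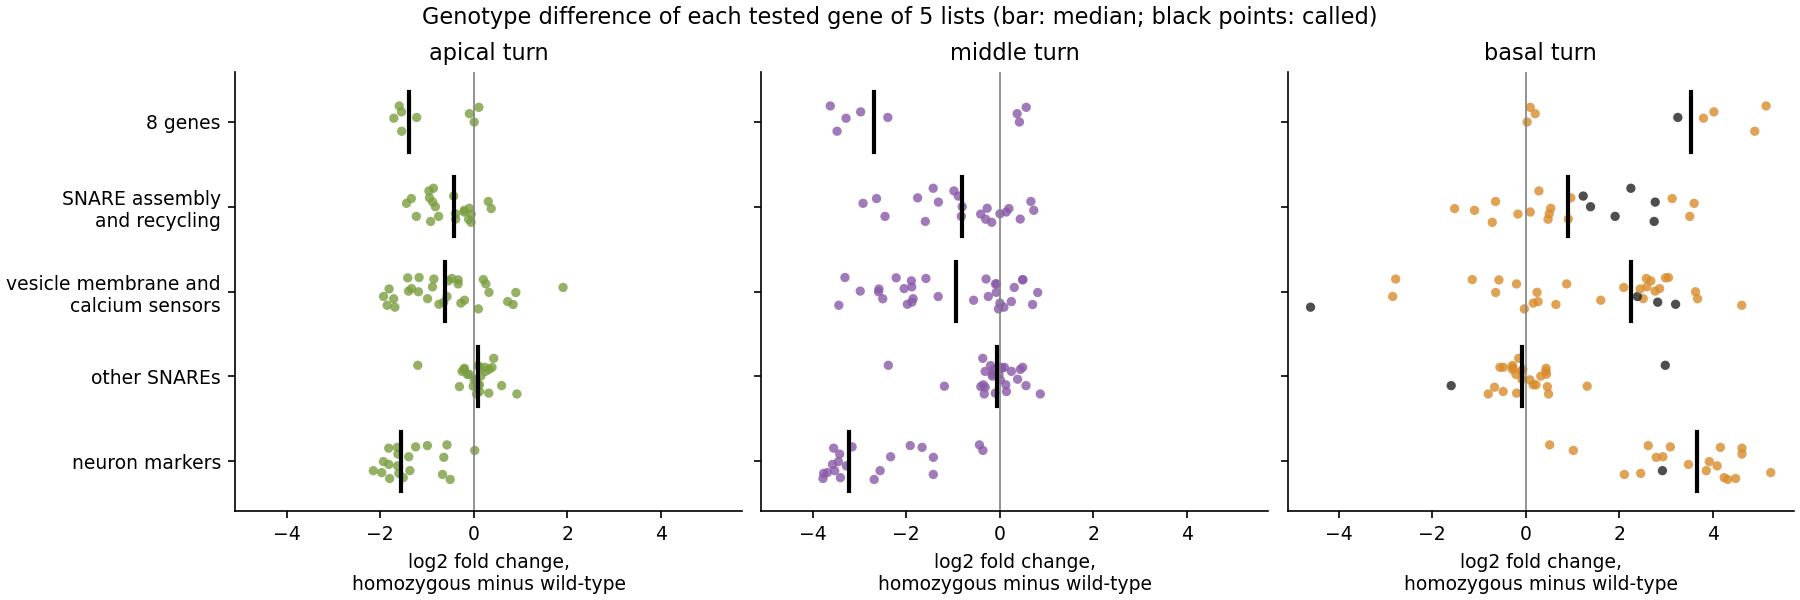
Log2 difference, homozygous minus wild-type, of each tested gene of 5 lists, with 1 panel per turn, a bar at the median and black points for called genes. The 8 genes, the assembly factors, the vesicle proteins and the neuron markers have medians of 3.52, 0.91, 2.24 and 3.67 in the basal turn, and the other SNARE proteins stay at −0.09.

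Likeness over the 12 libraries was described with Pearson's r on log2(scaled FPKM + 1), and the points share the same libraries and scaling. Within the graded class r lay between 0.952 and 0.999, with Snap25 and Cplx1 at 0.999. Vamp2 and Stx1a had an r of 0.818 with each other and of −0.622 to −0.476 with the graded genes. Cplx2 had an r between −0.0546 and 0.298 with the other 7. Among the 9459 genes whose mean reached 5 scaled FPKM, the 5 outside the set most like the mean of the 8 were Diras1 (0.995), Eef1a2 (0.994), Kcnab2 (0.994), Chga (0.994) and Sult4a1 (0.993).

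The nearest gene outside the set was also read for each member. Thy1 was the outside gene most like both Snap25 (0.997) and Cplx1 (0.996), Susd4 was most like Vamp1 (0.993), Cend1 most like Syp (0.997) and Hapln4 most like Syt2 (0.996). The nearest genes of the nearly level class were less alike, with Klhdc8b for Vamp2 (0.942), Snhg17 for Stx1a (0.948) and Uhrf2 for Cplx2 (0.886).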

How the data were processed

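RNA of apical, middle and basal cochlear turns was extracted with the miRNeasy Micro Kit, and libraries made with the VAHTS Universal V8 kit were sequenced as paired ends on a NovaSeq6000. Per the methods and processing notes, the authors cleaned reads with fastp (0.20.0), aligned them to mm10 with STAR (2.7.3a), kept unique reads, counted them with featureCounts (2.0.0) and calculated the deposited FPKM with StringTie (2.0). Counts were not used here.

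Scaling factors were medians of ratios, taken from 11552 genes that reached 1 FPKM throughout. The 16215 genes reaching 1 FPKM in at least 2 libraries entered a linear model in limma (3.58.1, under R 4.3.3) of log2(scaled FPKM + 1) on the 6 groups, with a trended prior, 13 contrasts and two-sided p-values adjusted by Benjamini-Hochberg over the genes tested. The fit had 6 residual and 2.78 prior degrees of freedom. An exact permutation of 2 against 2 libraries cannot give a p below 0.333. The script was tested on simulated data.

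The members and all gene lists were chosen with earlier results of these data known. The text names the 8 genes, the 5 genes most like their mean and the gene most like each. Of the other lists it names some of those with the highest mean and some of those called. Some genes of these lists are not reported here by name. Alternatives changed the pseudocount, filter, scaling, threshold, variance trend, replicate block, groups fitted and libraries left out. Vamp7 and Slc18a3 were not analysed here.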

Additional observations from a re-analysis of the deposited data

Results flagged for a closer look

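The genotype difference of Vamp1 differed between turns by the test of the difference itself. The basal difference exceeded the middle one by 5.65 on the log2 scale (limma, adjusted p = 0.00324). In this contrast 8.91% of all genes were called. All 4 libraries of the basal turn lay in the order wild-type below homozygous, and all 4 of the middle turn in the opposite order. Genotypes lay apart, in either direction, for 54.0% of all genes in the basal turn and 59.5% in the middle turn. With 1 library left out, the difference of Vamp1 ran from 4.72 to 6.56. Both turns were taken as labelled. The replicate groups of 2 libraries are too small for a test of single outlying libraries.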

How the results depend on the processing

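Each count of members called was recomputed under 9 alternatives and with each of the 12 libraries left out, and so was each member's genotype difference within the 3 turns and between the basal and middle turns. The members' differences in the other contrasts were not recomputed. In the basal turn the number called went from 1 to 0 with no filter, with the replicate block and with only the groups compared, and to 3 at an adjusted p under 0.05. Between the basal and middle turns it went to 0 with no filter or only the groups compared, to 2 with a filter of 5 FPKM or quantile normalization, and to 5 at an adjusted p under 0.05. Between the basal and apical turns it went from 0 to 1 with quantile normalization and to 3 at an adjusted p under 0.05. In the homozygous mice the basal against middle count went from 1 to 0 with a pseudocount of 0.1, no filter, the replicate block, no trend or only the groups compared, and to 3 at an adjusted p under 0.05. The basal against apical count went from 0 to 1 with only the groups compared and to 2 at an adjusted p under 0.05. With 1 library left out, the counts ran from 0 to 5 in the basal turn, between the basal and apical or middle turns and between homozygous basal and middle turns, and from 0 to 2 between homozygous basal and apical turns. Apart from those changes, the cause of which was not tested, the counts stayed as given.

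No recomputed difference of the 5 graded genes changed sign under any of these settings. Of the nearly level genes, Vamp2 reached −0.12 in the apical and −0.0493 in the basal turn under quantile normalization. With 1 library left out, Vamp2 ran from −0.17 to 0.19 in the apical and from −0.16 to 0.23 in the basal turn, Stx1a from −0.14 to 0.36 and from −0.18 to 0.36, and Cplx2 from −0.22 to 0.0341, from −0.0829 to 0.48 and, between basal and middle turns, from −0.46 to 0.11. With FPKM as deposited, the median change in the log2 difference over all genes was 0.147 in the middle turn and −0.138 between basal and middle turns. The share of called genes that were higher in the middle turn went from 44.8% to 60.9%. Replicate numbers are not said to mark 1 animal, and the correlation of replicate differences between groups ran from −0.432 to 0.45, so the replicate block was kept as an alternative, under which Vamp1 in the basal turn had an adjusted p of 0.0155. Without counts, the error of low genes such as Stx1a, Cplx2 and low Syt2 values is unknown.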
